A study of Rattus norvegicus with 29 samples.

Results

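The comparison described here set the livers of rats given 2000 mg/kg PMCol (pentamethylchromanol) against those of rats given 200 mg/kg, both killed on day 29. It used 5 animals at 2000 mg/kg and 6 at 200 mg/kg, 11 of the 29 animals of the study, and they were chosen by their sample titles alone. The study dosed male Crl:CD Sprague-Dawley rats, aged 6-7 weeks per the labels, by oral gavage once a day, with PMCol or with the 1% methylcellulose vehicle only. Both groups compared had received 28 daily doses, so they differed in the labels by dose alone. Beside them the study had 6 vehicle animals at day 29, and 6 vehicle animals and 6 animals at 2000 mg/kg killed on day 8 after 7 doses. A piece of the left liver lobe of each animal gave total RNA and 1 array. The labels number the animals of a group as biological replicates and do not give litter, cage or hour of death.

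PMCol has the chromanol ring of vitamin E without the long side chain. The liver meets such compounds with several sets of genes. The transcription factor NRF2 turns on enzymes that make glutathione and reduce quinones and aldehydes when electrophiles or oxidants modify its partner KEAP1. The nuclear receptors CAR and PXR turn on cytochromes P450, conjugating enzymes and efflux pumps, with Cyp2b genes as the usual CAR readout. Stress kinases that phosphorylate eIF2-alpha raise the factor ATF4, whose targets supply amino acids, and PPAR-alpha raises fatty acid oxidation.

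Values are the deposited log2 signals of each transcript cluster (a set of probes summarised together, so that a gene can have more than 1 cluster and a cluster may have no gene symbol), centred on the cluster's median over all 29 animals. They give differences between animals and not levels of expression, so no gene is compared with another by level. A difference is the mean at 2000 mg/kg minus the mean at 200 mg/kg on the log2 scale, ± its SE from limma (n = 5 and 6), with p-values adjusted by the Benjamini-Hochberg method across the 27342 clusters. For single genes the values at 2000 mg/kg are given for replicates 1 to 5, and those at 200 mg/kg as the lowest, the median and the highest of 6. A gene is called where its adjusted p is under 0.05. The number of arrays limits the precision.

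The 10-fold higher dose raised 1653 clusters (6.05% of 27342) and lowered 1051 (3.84%). Among the 15097 clusters with 1 gene symbol the shares were 8.12% higher and 4.62% lower, and gene lists are read against these 2 shares. Clusters with stored log2 values of 8 or more in all animals gave larger shares. Tested alone, 1198 of these 7768 were higher and 743 lower. Several lists hold mostly such clusters, as all 30 measured proteasome subunits are, and were not set against those larger shares. The differences were mostly small: 77.7% of the called clusters moved by less than 0.5 on the log2 scale, and 61 rose and 45 fell by 2-fold or more. The groups did not overlap in 1674 clusters (6.12% of all). The median difference of all clusters was 0.0012. Where limma called 0 members of a list in a direction, an unadjusted p under 0.05 gave 3 lower aldo-keto reductases, 1 lower glutathione transferase, 1 lower bile duct marker, 2 higher genes each in the growth hormone and immediate early lists and 1 each in the amino acid and acute phase lists. It gave 1 lower T, B and NK cell marker, and 0 in the remaining such lists. Without replicate 5 of the 2000 mg/kg group the counts were 1080 higher and 675 lower. A test against a difference of 1.2-fold rather than 0 called 148 and 83. Against vehicle, 200 mg/kg changed 2.78% of clusters and 2000 mg/kg 21.6% at day 29. Those comparisons share animals with the one described here. At day 8, in other animals, 2000 mg/kg changed 18.6%.

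Aldo-keto reductases had the 2 largest rises among the genes named. Akr1b8, an aldo-keto reductase of the aldose reductase family, stood at 3.73, 5.28, 4.72, 5.15 and 5.26 in the 5 animals at 2000 mg/kg and at -0.15, -0.042 and 0.14 at 200 mg/kg. Every high-dose animal lay far above every low-dose animal, and the low-dose animals lay in the range of the vehicle animals (-0.41 to 0.31). The difference was 4.84 ± 0.23, or 28.6-fold (adjusted p = 5.64e-14). With a prior variance that follows the mean value the same difference had an adjusted p of 0.431, and the mean of centred values is not a level. Akr1b7, a close relative, was at 2.92, 4.13, 3.36, 3.40 and 3.98 against -0.20, -0.020 and 0.12, a difference of 3.59 ± 0.25 (12.0-fold). Replicate 1 was the lowest high-dose animal for both genes. Akr1b10, the third relative, differed by 1.19 ± 0.10. These relatives are close in sequence and can share probes, so how the change divides among them is uncertain. Of 16 measured aldo-keto reductases 7 rose (43.8%) and 0 fell, and 1 or 2 fell when replicate 1, 3 or 5 at 200 mg/kg or replicate 3 at 2000 mg/kg was left out.

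Gstp1, the pi-class glutathione transferase that joins glutathione to electrophiles, was at 1.79, 2.01, 1.35, 2.56 and 2.21 at 2000 mg/kg and at -0.13, 0.00042 and 0.21 at 200 mg/kg. The groups did not overlap, and the difference of 1.98 ± 0.15 was 3.93-fold (adjusted p = 1.08e-09). Nqo1, a quinone reductase, was at 1.39, 1.51, 1.65, 1.68 and 1.70 against -0.28, 0.17 and 0.40. It differed by 1.46 ± 0.11 (2.75-fold), after a change of 1.15 ± 0.11 from vehicle to 200 mg/kg (adjusted p = 7.03e-08), so both dose steps were called. Me1, malic enzyme, which supplies NADPH, was at 1.05, 1.21, 1.32, 1.5 and 1.48 against -0.33, -0.039 and 0.30, a difference of 1.31 ± 0.13.

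Of 26 measured NRF2 targets 21 rose between the doses (80.8%) and 0 fell. Their median difference was 0.62 on the log2 scale, where the median of all clusters was 0.0012, and 18 of the 26 had groups that did not overlap. The mean of the 26 genes ran from 0.56 to 0.85 in the high-dose animals, from -0.10 to 0.037 in the low-dose animals and from -0.48 to -0.35 in the vehicle animals. Leaving out any 1 of the 11 animals left 19 to 22 rises. Between vehicle and 200 mg/kg 8 of the same 26 had risen, as had 280 of the 15097 clusters with 1 symbol.

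The antioxidant response element that NRF2 binds was looked for in the promoters of this list, to show where the members that rose together carry it. The letters searched were TGACNNNGC, on both strands of the 250 bases before each RefSeq start (GRCr8), and 10.1% of 33469 promoters in the table hold them. A promoter was at hand for 21 of the 26 NRF2 targets and 7 held a match, and for 14 of 18 glutathione transferases, of which 4 did. Windows of 60 bases from 5 genes that rose are given 5′ to 3′ on the gene's strand, with the match in capitals and the reverse complement where it lies on the other strand.
Gstp1, chr1:210769733-210769792, minus strand: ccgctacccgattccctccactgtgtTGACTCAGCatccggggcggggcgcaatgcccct
Me1, chr8:96540378-96540437, minus strand: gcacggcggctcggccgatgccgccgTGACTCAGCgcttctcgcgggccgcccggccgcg
Gclm, chr2:213031937-213031996, plus strand: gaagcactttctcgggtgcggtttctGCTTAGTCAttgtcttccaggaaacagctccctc
Txnrd1, chr7:22755949-22756008, minus strand: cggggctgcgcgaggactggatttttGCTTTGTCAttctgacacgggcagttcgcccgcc
Gsta3, chr9:31154929-31154988, plus strand: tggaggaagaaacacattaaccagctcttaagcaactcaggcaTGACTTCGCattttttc
The matches begin 61 bases before the start of Gstp1, 167 before that of Me1, 172 before Gclm, 78 before 1 of 2 starts of Txnrd1 and 17 before 1 of 2 starts of Gsta3. Those of Gstp1 and Me1 overlap TGANTCA, the letters of an AP-1 site, which 6.34% of the promoters hold. A match describes the sequence only, and promoters without one, such as that of Akr1b8, may carry the element outside this window.

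Gclc, the catalytic subunit of glutamate-cysteine ligase, was at 0.36, 0.32, 0.66, 0.81 and 0.79 against -0.14, 0.0019 and 0.12, a difference of 0.60 ± 0.093 (1.52-fold, adjusted p = 6.84e-05). Gclm, its modifier subunit, differed by 0.58 ± 0.079, and Slc7a11, which imports cystine for the same pathway, by 0.67 ± 0.15. Txnrd1, thioredoxin reductase, was at 0.31, 0.62, 0.61, 0.65 and 0.57 against -0.076, 0.016 and 0.26 and differed by 0.50 ± 0.079. Hmox1, heme oxygenase, was at 1.31, 0.36, 0.73, 0.67 and 0.61 against -0.56, -0.084 and 0.43, and its groups overlapped, with a difference of 0.77 ± 0.19 (adjusted p = 0.00767). Of 18 glutathione transferases 9 rose (50%) and 0 fell, and 1 fell when replicate 5 at 200 mg/kg was left out. After Gstp1 the rises were led by Gsta3 and by Gsta4, which acts on lipid aldehydes and differed by 0.81 ± 0.11, with a second cluster at 0.94.

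**Figure D1:**
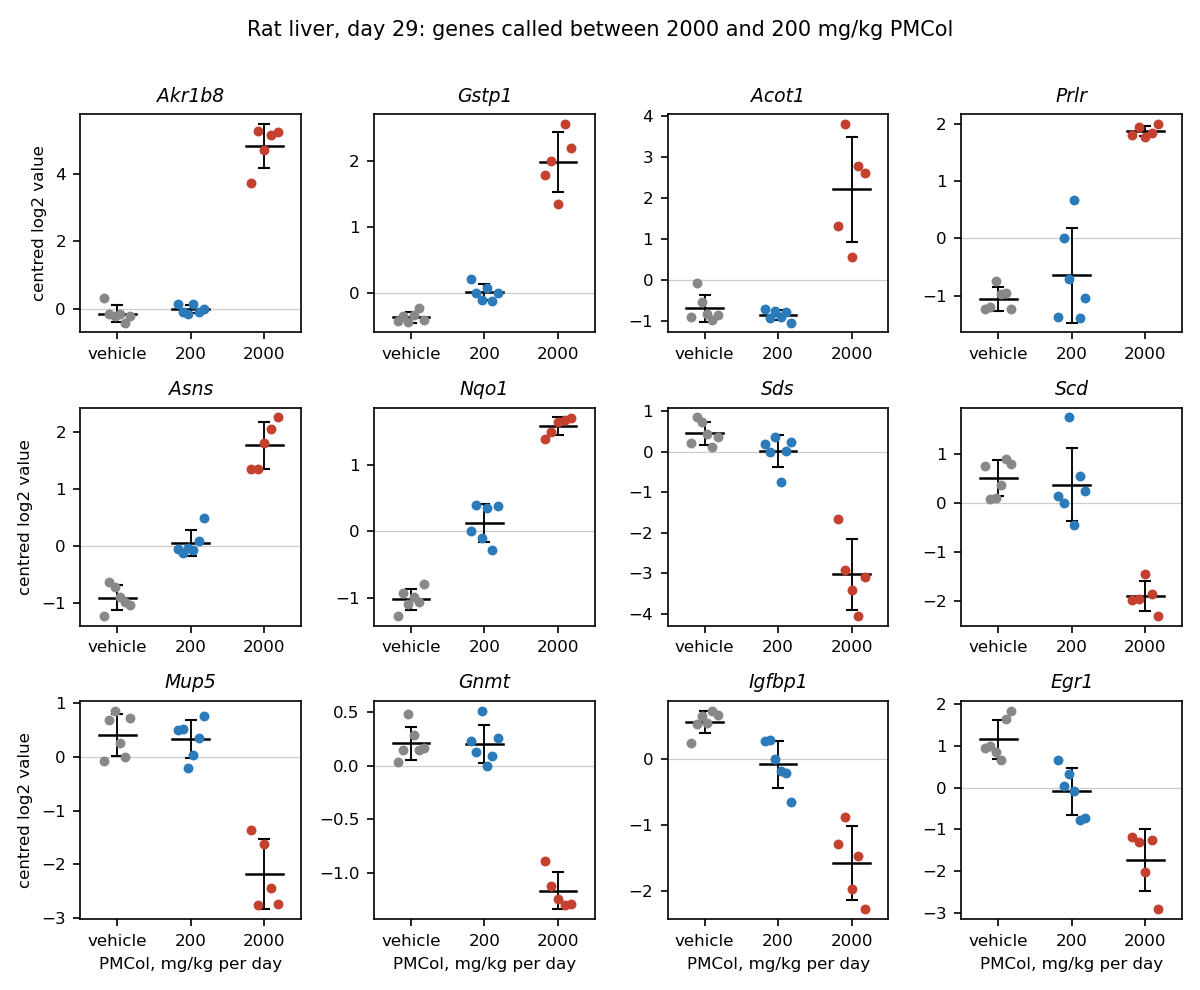
Centred log2 values (y axis, a separate scale per gene) of 12 genes called between the doses, for each animal at day 29 by dose (x axis, mg/kg per day). Points are animals, horizontal bars group means and vertical bars 1 SD. All 5 animals at 2000 mg/kg lie outside the range of the 6 at 200 mg/kg for each gene shown, and Akr1b8, Acot1 and Mup5 at 200 mg/kg lie near the vehicle animals. The genes were picked for display from those called, and the groups did not overlap in 53.3% of all called clusters.

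Some detoxification genes rose at both dose steps, from vehicle to 200 mg/kg and from 200 to 2000 mg/kg. Abcc3, the pump that carries glucuronides from the hepatocyte to blood, was at -3.33, -3.12 and -2.49 (lowest, median and highest) in vehicle animals, -0.30, 0.072 and 0.35 at 200 mg/kg and 1.24, 1.34, 1.34, 1.38 and 1.54 at 2000 mg/kg. The 3 groups did not overlap, with 3.11 ± 0.13 for the first dose step and 1.29 ± 0.14 for the second. Gsta3 showed the same order, with steps of 2.56 ± 0.17 and 1.43 ± 0.18. Ces2c, a carboxylesterase that hydrolyses ester drugs, had steps of 2.43 ± 0.14 and 1.28 ± 0.15. Its relatives Ces2a and Ces2e differed between the doses by 1.03 ± 0.070 and 0.89 ± 0.12. Of 10 carboxylesterases 4 rose (40.0%), all of the Ces2 group, and 0 fell. Akr7a3, which reduces aflatoxin aldehyde, differed by 1.18 ± 0.14, Aldh1a1, a retinaldehyde dehydrogenase, by 0.60 ± 0.11 and Ugt2b1, a glucuronosyltransferase, by 0.43 ± 0.092. Abcc4, the pump of the same family, had a step of 0.35 ± 0.11 at 200 mg/kg (adjusted p = 0.0913) and of 0.95 ± 0.12 between the doses, where its other clusters gave 1.02 and 0.48.

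The Cyp2b genes, the usual readout of CAR, were not called between the doses. Cyp2b1 was at 0.20, 0.36, 0.34, 0.20 and 0.31 at 2000 mg/kg and at -0.13, 0.0031 and 0.46 at 200 mg/kg, against -2.25, -1.84 and -0.93 in vehicle animals. The 2 doses overlapped, and both lay above all vehicle animals. The difference of 0.21 ± 0.18 has a 95% interval of -0.17 to 0.59 (adjusted p = 0.554). Cyp2b2 was at 0.54, 0.38, 0.45, 0.40 and 0.54 against -0.070, 0.0011 and 0.37, with no overlap and an interval of 0.079 to 0.73 (adjusted p = 0.112), and in a fit of the 11 animals alone it was called (adjusted p = 0.00623). The first dose step was 1.78 ± 0.17 for Cyp2b1 and 1.84 ± 0.15 for Cyp2b2. These 2 genes are also close in sequence. Cyp1a1, the usual readout of the aryl hydrocarbon receptor, was at 0.89, 0.54, 0.48, 2.91 and 2.26 against -0.24, 0.37 and 2.15, with an interval of -0.029 to 1.59 (adjusted p = 0.244). Its values spread over more than 2 log2 units in either group, with replicates 4 and 5 highest at 2000 mg/kg. Of 6 targets of that receptor 1 rose, which was Nqo1, and 0 fell. Cyp3a9 had a difference of -0.49 ± 0.28 (adjusted p = 0.319).

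Of 19 measured CAR and PXR targets 8 rose (42.1%) and 2 fell (10.5%), and 1 fell when replicate 2 or 4 at 200 mg/kg or replicate 2 or 5 at 2000 mg/kg was left out. Akr1b7, Abcc3 and Ces2c led the rises, followed by Abcb1a, a multidrug efflux pump, at 0.72 ± 0.14. The falls included Slco1a4, an uptake transporter for organic anions, at -0.54 ± 0.12. Of 15 uptake transporters 7 fell (46.7%) and 0 rose. Among them were the organic anion transporters Slc22a7 and Slc22a8 at -0.44 ± 0.067 and -0.59 ± 0.12, the prostaglandin transporter Slco2a1 at -0.60 ± 0.11 and Ust5r, an organic anion transporter family gene, at -1.01 ± 0.17. Of 12 ABC efflux pumps 5 rose and 3 fell, and 3 rose without replicate 2 or without replicate 4 at 2000 mg/kg. Of 18 genes of glucuronidation and sulfation 5 rose and 3 fell. Ugdh, which makes the sugar donor for glucuronidation, rose by 0.47 ± 0.078, while the sulfotransferase Sult1c3 was at -0.55, -1.04, -0.51, -1.20 and -1.42 against -0.20, 0.0086 and 0.12, a difference of -0.95 ± 0.12, and Papss2, which makes the sulfate donor, differed by -0.45 ± 0.068.

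**Figure D2:**
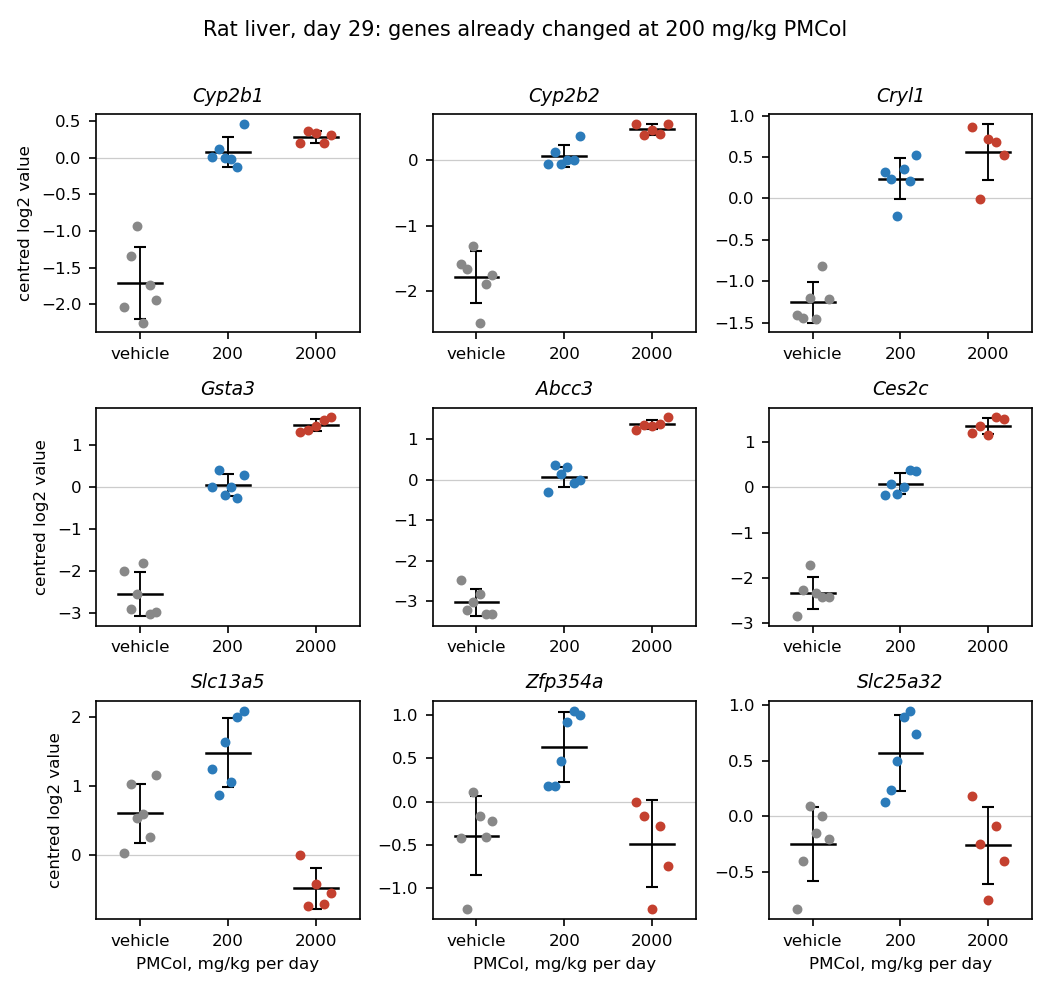
Centred log2 values (y axis, a separate scale per gene) of 9 genes that differed between vehicle and 200 mg/kg at day 29, for each animal by dose (x axis, mg/kg per day), with group means and 1 SD. The upper row shows genes without a call between the doses, the middle row genes that rose again, and the lower row genes that rose at 200 mg/kg and were lower at 2000 mg/kg, such as Slc13a5 at 0.87 to 2.09 and then -0.74 to 0.

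Of 28 measured ATF4 response genes, which respond to amino acid shortage among other stresses, 11 rose (39.3%), 3 fell (10.7%) and 14 were not called, with a median difference of 0.11. Asns, asparagine synthetase, was at 1.36, 1.36, 1.82, 2.07 and 2.27 against -0.13, -0.046 and 0.50, a difference of 1.73 ± 0.19 (3.31-fold, adjusted p = 6.38e-07). No animals overlapped, and vehicle animals were lower still, at -1.24 to -0.63. Slc7a5, the light chain of a transporter of large neutral amino acids, was at 0.48, 1.23, 1.12, 1.36 and 1.42 against -0.49, -0.28 and -0.21 and differed by 1.43 ± 0.13. Psat1, of serine synthesis, differed by 1.05 ± 0.21 in one cluster and by 0.27 in a second, which was not called (adjusted p = 0.148). Fgf21, a liver hormone that both ATF4 and PPAR-alpha can raise, was at 0.011, 0.039, 0.82, 0.87 and 0.22 against -1.12, -0.79 and -0.57, a difference of 1.21 ± 0.27 (adjusted p = 0.0037). The falls of the list included Ppp1r15a, the phosphatase subunit that ends the eIF2-alpha signal, at -1.04 ± 0.25, whose groups overlapped. Of 19 tRNA synthetases 8 rose, all by less than 0.5. That count fell to 1 without replicate 5 and 3 without replicate 4 at 2000 mg/kg, to 5 without replicate 2, and to 4 or 5 without replicate 1, 2, 3 or 5 at 200 mg/kg. Yars1, tyrosyl-tRNA synthetase, kept its call in each of these, at 0.25 ± 0.067.

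Some genes of protein breakdown and folding were higher. Of 30 proteasome subunits 17 rose (56.7%) and 0 fell, with a median difference of 0.23 on the log2 scale. Psmd14, a deubiquitinase of the proteasome lid, differed by 0.66 ± 0.15, and Psmc4 and Psmd2, of the base, by 0.40 ± 0.084 (second cluster 0.33) and 0.37 ± 0.059. Of 22 genes of heat shock proteins and their partners 11 rose (50%) and 0 fell. Hsp90aa1, the inducible cytosolic HSP90, was at 0.11, 0.29, 0.22, 0.33 and 0.48 against -0.37, -0.13 and -0.0019, with no overlap at a difference of 0.44 ± 0.078 (1.36-fold). Hsph1 and the cochaperone Bag3 differed by 0.42 ± 0.081 and 0.47 ± 0.080, and the small heat shock protein Cryab by 0.94 ± 0.19 with overlapping groups. In the endoplasmic reticulum list 6 of 22 rose and 1 fell, and 0 fell without replicate 5 at 2000 mg/kg. Derl3, which helps export misfolded proteins from the endoplasmic reticulum, was at 1.53, 1.54, 2.24, 1.95 and 2.15 against -0.53, 0.007 and 0.14, a difference of 1.98 ± 0.14 (3.95-fold, adjusted p = 1.95e-10). The other rises in that list were smaller, such as Sdf2l1 at 0.59 ± 0.11 and P4hb, a disulfide isomerase, at 0.26 ± 0.051.

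**Figure D3:**
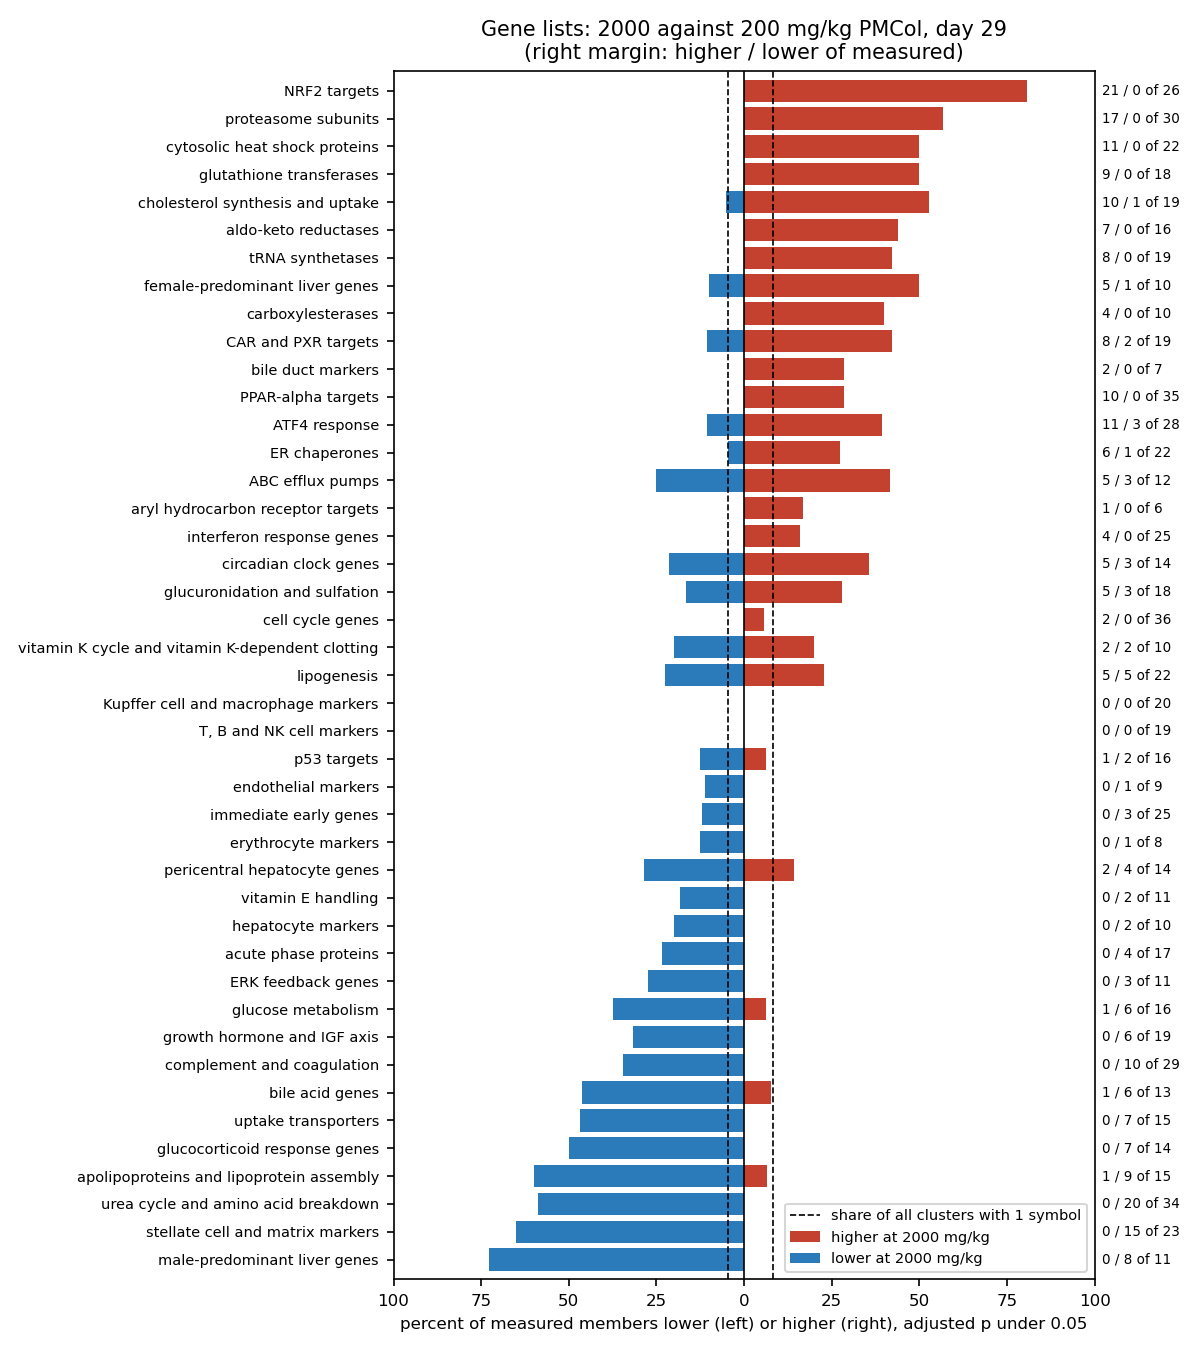
Share of the measured members of each of 43 gene lists that were higher (right, red) or lower (left, blue) at 2000 than at 200 mg/kg, in percent, with the counts at the right margin. Dashed lines mark the shares among all clusters with 1 symbol, 8.12% higher and 4.62% lower. NRF2 targets have the highest share of rises, 80.8%, and male-predominant liver genes the highest share of falls, 72.7%.

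Fatty acid genes moved in both directions. Acot1, a cytosolic thioesterase that frees fatty acids from CoA and a target of PPAR-alpha, was at 1.30, 3.79, 0.55, 2.78 and 2.60 against -1.04, -0.84 and -0.71. All 5 high-dose animals lay above the low-dose animals but spread over more than 3 log2 units, with replicates 1 and 3 lowest. The difference was 3.06 ± 0.36, or 8.33-fold (adjusted p = 1.31e-06), and the first dose step was -0.15 ± 0.34 (adjusted p = 0.923). Replicate 3 was also the lowest high-dose animal for Aqp7, a glycerol channel (1.06, 1.03, -0.11, 1.43 and 1.28), Cpt1b, of mitochondrial fatty acid entry (0.19, 1.04, -0.21, 0.85 and 0.58), and Cd36, a fatty acid transporter (0.39, 0.79, 0.16, 0.97 and 1.38). Their differences were 1.14 ± 0.24, 1.06 ± 0.22 and 1.03 ± 0.23, and the groups overlapped for Aqp7 and Cd36. Acaa1b, a peroxisomal thiolase, differed by 0.83 ± 0.13. Against vehicle at day 29, 12 of 35 PPAR-alpha targets were higher and 6 lower at 2000 mg/kg, with a median difference of 0.026. At 200 mg/kg 1 was higher and 1 lower than vehicle. Of the 15097 clusters with 1 symbol, 2274 were higher and 1665 lower than vehicle at 2000 mg/kg, and 280 and 264 at 200 mg/kg. Between the doses 10 of the 35 rose (28.6%) and 0 fell. Acnat2, a liver acyltransferase, went the other way, at -1.45, -1.99, -1.18, -1.88 and -3.00 against -0.080, 0.0057 and 0.29, a difference of -1.96 ± 0.22, and its second cluster gave -1.94.

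Of 22 lipogenesis genes 5 rose and 5 fell. Scd, the desaturase that makes oleate, was at -1.97, -1.95, -1.45, -1.85 and -2.30 against -0.44, 0.19 and 1.75, a difference of -2.28 ± 0.34, so it was 4.84-fold lower (adjusted p = 5.18e-05). Elovl6, which lengthens palmitate, was at 0.74, 1.2, 0.45, 1.75 and 1.52 against -0.61, -0.45 and -0.28 and rose by 1.56 ± 0.21 (2.95-fold). Fads1, the delta-5 desaturase of polyunsaturated fatty acids, was at 0.47, 0.36, 0.39, 0.54 and 0.44 against -0.55, -0.40 and -0.23, without overlap, and rose by 0.85 ± 0.11. Lpin1, a phosphatidate phosphatase, differed by -0.93 ± 0.22. Slc13a5, the citrate importer, was at 0, -0.74, -0.42, -0.71 and -0.55 against 0.87, 1.44 and 2.09 and differed by -1.97 ± 0.22 (adjusted p = 4.71e-07).

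Of 19 genes of cholesterol synthesis and uptake 10 were higher (52.6%) and 1 lower. Without replicate 4 or without replicate 5 at 2000 mg/kg 5 rose. Msmo1 was at 0.13, 0.0027, 0.15, 0.64 and 0.69 against -0.73, -0.45 and -0.065, a difference of 0.73 ± 0.16, and Dhcr7 and Lss, 2 other enzymes of the pathway, differed by 0.65 ± 0.12 and 0.53 ± 0.090. The gene that fell was Insig1, which holds back the SREBP factors that drive these enzymes. It was at -0.51, -0.96, -1.53, -0.81 and -1 against -0.18, 0.045 and 0.28, a difference of -1.01 ± 0.18 (adjusted p = 0.000365), and its second cluster gave -1.29. Genes of bile acid synthesis and transport had 6 falls and 1 rise among 13, and the rise was Abcc3. Slc27a5, which activates bile acids for conjugation, differed by -0.65 ± 0.13, Cyp27a1, sterol 27-hydroxylase, by -0.43 ± 0.072 and Cyp7b1, which follows it, by -0.45 ± 0.086. Cyp7a1, the rate-limiting enzyme of the main path, was at -0.25, -0.16, -1.47, 0.24 and 0.43 against -1.04, 0.061 and 0.32, with a difference of -0.13 ± 0.35 and an interval of -0.85 to 0.60 (adjusted p = 0.885). Of 15 apolipoproteins and lipoprotein genes 9 fell (60.0%) and 1 rose. Lipc, hepatic lipase, was at -0.42, -0.72, -0.42, -0.80 and -0.70 against -0.026, -0.0071 and 0.064 and differed by -0.62 ± 0.074 (adjusted p = 1.45e-06). Apom, a carrier of sphingosine 1-phosphate, differed by -0.52 ± 0.070 and Apoa4 by -1.09 ± 0.24 with overlapping groups. Mttp, which loads lipid onto apolipoprotein B, was the riser, at 0.48 ± 0.057.

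Genes that are higher in male than in female rat liver, a difference set by the pulsed secretion of growth hormone, were mostly lower at 2000 mg/kg. Of 11 listed genes 8 fell (72.7%) and 0 rose, and their median difference was -0.72. Mup5, a urinary carrier protein of the male liver, was at -1.36, -2.77, -1.63, -2.44 and -2.73 against -0.21, 0.43 and 0.76, a difference of -2.51 ± 0.25 (5.71-fold lower, adjusted p = 7.72e-08). Dhrs7l1, a short-chain dehydrogenase family gene, was at -1.41, -3.83, -2.26, -3.00 and -3.67 against -0.29, 0.095 and 0.44 and differed by -2.95 ± 0.32, with an adjusted p of 4.24e-07, which became 0.729 with a prior variance that follows the mean value. The mean of centred values is not a level and shifts with large changes, so that setting cannot decide this call. Low-dose animals overlapped vehicle animals for both genes. Nox4, which makes hydrogen peroxide, differed by -1.91 ± 0.22, and Cyp2c11, the main male P450, was at -0.34, -0.72, -0.079, -0.58 and -1.09 against 0.078, 0.16 and 0.30, a difference of -0.72 ± 0.17 (adjusted p = 0.00611). Stac3, also on this list, differed by -1.85 ± 0.38, but replicate 3, at 0.51, lay within the range of the low-dose animals (-0.29 to 1.66). Car3, a carbonic anhydrase, was at -1.35, -2.43, -0.63, -1.09 and -1.91 against -0.49, 0.053 and 0.49 and differed by -1.52 ± 0.31.

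Prlr, the prolactin receptor, which female rat liver carries at higher levels, was at 1.81, 1.95, 1.78, 1.84 and 1.99 at 2000 mg/kg, close together. At 200 mg/kg the animals stood at -1.40, -0.88 and 0.67, spread over more than 2 log2 units, and the groups did not overlap. The difference was 2.52 ± 0.26 (5.73-fold, adjusted p = 2.04e-07). Against vehicle at day 29, 4 of 10 female-predominant genes were higher and 2 lower at 2000 mg/kg, and 0 higher and 2 lower at 200 mg/kg. At day 8, 3 were higher and 3 lower at 2000 mg/kg. Of the 15097 clusters with 1 symbol, 2274 were higher and 1665 lower than vehicle at 2000 mg/kg at day 29. The counts were 280 and 264 at 200 mg/kg, and 1815 and 1736 at 2000 mg/kg at day 8. The mean of the 10 female-predominant genes ran from 0.34 to 0.57 at 2000 mg/kg, from -0.42 to -0.052 at 200 mg/kg and from -0.28 to 0.19 in vehicle animals. It includes Akr1b7 and Prlr, with differences between the doses of 3.59 and 2.52, so it does not show a shift of the whole list. The median difference of the 10 was 0.45 between the doses, and 0.19 between 2000 mg/kg and vehicle at day 29. Between the doses 5 of the 10 rose and 1 fell. Akr1b7 was among the rises, and Trim24, a nuclear receptor cofactor, differed by 0.72 ± 0.090. Cyp2c12, the main female P450, was at 0.15, 0.043, -0.36, 0.52 and 0.71 against -0.60, -0.53 and -0.26, and its call (difference 0.69 ± 0.19, adjusted p = 0.0174) was lost without replicate 4 (adjusted p = 0.0636) and without replicate 5 (adjusted p = 0.0814) at 2000 mg/kg. The fall was Hao2, a peroxisomal hydroxyacid oxidase, at -0.98, -1.23, -1.13, -1.58 and -1.75 against -0.19, -0.0069 and 0.21, a difference of -1.34 ± 0.12. Of 19 genes of growth hormone signalling and the insulin-like growth factors 6 fell (31.6%) and 0 rose, and 1 rose without replicate 4 at 2000 mg/kg. Igfbp1 and Igfbp3, binding proteins of IGF1, were at -1.30, -0.87, -1.98, -1.47 and -2.28 against -0.66, -0.090 and 0.28 and at -0.77, -1.19, -1.06, -0.92 and -1.19 against -0.042, 0.15 and 0.31. Their differences were -1.49 ± 0.26 and -1.16 ± 0.12, and that of Igfbp2 was -0.94 ± 0.18. Igf1 itself differed by -0.26 ± 0.056. Socs2, an inhibitor that growth hormone induces, had a first step of -1.51 ± 0.33 and a difference between doses of -0.70 ± 0.34, with an interval of -1.40 to 0.0034 (adjusted p = 0.224).

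Of 34 genes of the urea cycle and amino acid breakdown 20 fell (58.8%), 0 rose and 18 had groups that did not overlap. When replicate 6 at 200 mg/kg was left out 1 rose. Sds, serine dehydratase, was at -1.66, -2.91, -3.42, -4.05 and -3.08 against -0.74, 0.11 and 0.37, a difference of -3.04 ± 0.32, so it was 8.23-fold lower (adjusted p = 2.27e-07). Replicate 1 was again the high-dose animal nearest to the low dose, and the step from vehicle to 200 mg/kg was not called (-0.44 ± 0.31, adjusted p = 0.601). Gnmt, which uses the methyl group of S-adenosylmethionine, was at -0.88, -1.12, -1.24, -1.29 and -1.29 against 0, 0.18 and 0.51, a difference of -1.37 ± 0.12. Got1, cytosolic aspartate aminotransferase, differed by -1.14 ± 0.15, Hal, which breaks down histidine, by -0.99 ± 0.14, Prodh, proline dehydrogenase, by -0.95 ± 0.16 and Oat, ornithine aminotransferase, by -0.93 ± 0.17. Cps1, the entry enzyme of the urea cycle, had a difference of -0.35 ± 0.060.

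Of 16 genes of glucose metabolism 6 fell (37.5%) and 1 rose. Pck1, the cytosolic enzyme of gluconeogenesis, was at -0.29, -0.16, -0.23, -0.32 and -0.63 against -0.029, 0.11 and 0.27, a difference of -0.44 ± 0.082, while Pck2, its mitochondrial form, was the riser at 0.42 ± 0.075. Pklr, liver pyruvate kinase, differed by -0.32 ± 0.064. Pfkfb3, which sets the level of an activator of glycolysis, had risen by 0.62 ± 0.13 from vehicle to 200 mg/kg and then differed by -0.67 ± 0.14. Of 14 glucocorticoid response genes 7 fell (50%) and 0 rose. Tsc22d3, also called GILZ, was at -0.34, -0.23, -1.15, -0.63 and -1.21 against 0.12, 0.56 and 0.79, a difference of -1.20 ± 0.23. Nfkbia, the NF-kappa-B inhibitor, was at -0.76, -0.50, -1.19, -0.63 and -1.17 against -0.051, 0.41 and 0.57 and differed by -1.22 ± 0.23. Tat, tyrosine aminotransferase, differed by -0.37 ± 0.060 and Cdkn1a, a cell cycle inhibitor, by -0.86 ± 0.21. Fkbp5, a common glucocorticoid readout, behaved otherwise, at 1.36, 1.02, 0.050, 1.27 and 0.99 against -0.20, 1.57 and 1.90 and -0.53 to -0.28 in vehicle animals, with no call between doses (-0.17 ± 0.30, interval -0.80 to 0.45, adjusted p = 0.8).

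Immediate early genes, which are induced within minutes of a stimulus or of tissue handling, differed among the low-dose animals. The mean of 25 such genes was 0.56 in replicate 1 at 200 mg/kg and between -0.41 and 0.15 in the other 5, and it lay between -0.57 and -0.16 at 2000 mg/kg. Only 3 of the 25 were called lower (12.0%) and 0 higher. Without replicate 6 at 200 mg/kg 6 were lower, without replicate 3 at 2000 mg/kg 5 were, and without replicate 1 at 200 mg/kg 1 was higher. Egr1, a transcription factor of this group, was at -1.19, -1.31, -2.03, -1.25 and -2.92 against -0.77, -0.018 and 0.66, a difference of -1.65 ± 0.33 (adjusted p = 0.0011), and without any 1 animal its adjusted p was at most 0.00716. Dusp1, a phosphatase that ends MAP kinase signals, differed by -0.94 ± 0.21 and Zfp36, which destabilises cytokine messages, by -0.78 ± 0.18. Nr4a1, an orphan receptor, was at -1.04, -1.25, -1.44, -1.44 and -1.41 against -1.30, -0.67 and 1.47, and its difference of -1.10 ± 0.40 was not called (adjusted p = 0.0824) but was without replicate 4 or 6 at 200 mg/kg (adjusted p = 0.0446 and 0.033). Of 11 ERK feedback genes 3 fell and 0 rose, among them Spry1, an inhibitor of that pathway, at -0.50 ± 0.090. The part of the animals' immediate early levels in the other differences was not tested.

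Clock genes differed in both directions, with 5 of 14 higher and 3 lower. Without replicate 5 at 2000 mg/kg 3 were higher. Dbp and Per3, which peak late in the light phase in rodent liver, differed by 1.04 ± 0.20 and 0.95 ± 0.19 with overlapping groups. Npas2 and Bmal1, of the opposite phase, differed by -0.93 ± 0.13 and -0.58 ± 0.14. Dbp was at 1.66, 0.43, 1.25, 0.85 and 1.29 against -0.42, 0.038 and 0.53, and Npas2 at -0.71, -0.80, -1.03, -1.06 and -1.48 against -0.44, -0.048 and 0.20. The hour of death is not in the labels, so hour and dose cannot be told apart for these genes or for others with a daily rhythm.

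Some genes for secreted plasma proteins were lower, by small amounts. Of 29 complement and coagulation genes 10 were lower (34.5%) and 0 higher, and 6 were lower without replicate 4 or without replicate 5 at 2000 mg/kg. F11, coagulation factor XI, was at -0.086, -0.29, -0.23, -0.12 and -0.33 against 0.11, 0.23 and 0.38, a difference of -0.45 ± 0.080, and Serpind1, heparin cofactor II, at -0.39, -0.61, -0.42, -0.54 and -0.54 against -0.092, -0.027 and 0.12, a difference of -0.48 ± 0.11. C4bpb, a complement inhibitor, differed by -0.50 ± 0.11 and Serpinf2, antiplasmin, by -0.28 ± 0.057. Among 10 genes of the vitamin K cycle and its clotting factors 2 rose and 2 fell. The rises were Ggcx, the carboxylase that activates the clotting factors, at 0.33 ± 0.070, and Vkorc1l1, a vitamin K reductase, at 0.33 ± 0.073. The falls were F2, prothrombin, at -0.16 ± 0.037 and Proc, protein C, at -0.23 ± 0.046. Vkorc1, the main reductase and warfarin's target, had a difference of 0.081 ± 0.082 (interval -0.087 to 0.25, adjusted p = 0.624). Of 11 genes that handle vitamin E 2 fell and 0 rose, and 1 fell without replicate 2, 4 or 5 at 2000 mg/kg. Afm, afamin, a plasma carrier of vitamin E, differed by -0.38 ± 0.065. Ttpa, the transfer protein that retains alpha-tocopherol, had a difference of -0.16 ± 0.055 (interval -0.27 to -0.047, adjusted p = 0.0652) and was called without replicate 3 at 2000 mg/kg (adjusted p = 0.024). Of 17 acute phase proteins 4 fell and 0 rose, among them Itih3 at -0.38 ± 0.061 and Hp, haptoglobin, at -0.25 ± 0.053.

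The tissue was checked with markers of its cell types. In bulk liver, fewer cells of a type and less RNA per cell cannot be told apart. All 10 measured hepatocyte markers had stored log2 signals of 8 or more in every animal, and Alb, albumin, had a difference of -0.018 ± 0.042 (interval -0.10 to 0.069). The differences of the 10 ran from -0.35 to -0.018, all below 0, with a median of -0.075. The groups did not overlap for 4 of them (40%, against 6.12% of all clusters). Of the 10, 2 were called lower and 0 higher, with a mean over the list of -0.12 to -0.043 at 2000 mg/kg and 0.0091 to 0.058 at 200 mg/kg. That count became 1 in 7 of the 11 fits that left an animal out, those without replicate 1, 2, 3 or 4 at 200 mg/kg or replicate 2, 4 or 5 at 2000 mg/kg. Markers of stellate cells, which store retinyl esters, and of matrix had 15 of 23 members lower (65.2%) and 0 higher. Their mean was -0.42 to -0.22 in the high-dose animals, -0.077 to 0.17 in the low-dose animals and 0.098 to 0.48 in vehicle animals. Lrat, which makes retinyl esters, was at -0.80, -0.90, -0.98, -0.53 and -0.93 against -0.15, 0.10 and 0.44, a difference of -0.95 ± 0.14 (adjusted p = 4.04e-05). Sparc, a matrix protein, was at -0.67, -0.66, -0.63, -0.57 and -0.74 against -0.30, -0.047 and 0.13, a difference of -0.59 ± 0.080, and Col3a1 and the receptor Pdgfra differed by -0.55 ± 0.11 and -0.64 ± 0.13. The part of cell type shares in the other differences was not tested.

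Of 20 macrophage markers limma called 0 in either direction, and 0 had an unadjusted p under 0.05. Their mean ran from -0.65 to 0.41 at 2000 mg/kg, where replicates 2 and 4 were low, and from -0.75 to 0.25 at 200 mg/kg, where replicates 1 and 3 were. Of 19 T, B and NK cell markers limma called 0, 1 was lower at an unadjusted p under 0.05, and 0 had stored signals of 8 or more. Among 9 endothelial markers 1 was called lower, and 0 without replicate 2 or 4 at 2000 mg/kg. At an unadjusted limma p under 0.05, 5 of the 9 were lower and 0 higher, where 6173 of all 27342 clusters reached that p in either direction. Among 8 erythrocyte markers 1 was lower, and 0 in fits without replicate 1, 2 or 3 at 200 mg/kg or replicate 1, 4 or 5 at 2000 mg/kg. The erythrocyte mean was 0.59 in replicate 1 at 200 mg/kg and -0.38 to 0.15 in the other 5. Of 7 bile duct markers 2 were higher, and 1 in fits without replicate 1, 2 or 5 of either group. Epcam, an adhesion protein of bile duct cells, was at 0.44, 0.61, 0.27, 0.72 and 0.78 against -0.51, 0.0042 and 0.11, a difference of 0.63 ± 0.12. Of 14 pericentral hepatocyte genes 2 rose and 4 fell, and 0 or 1 rose in fits without replicate 1, 2, 3 or 5 at 200 mg/kg or replicate 2, 3, 4 or 5 at 2000 mg/kg. Of 36 cell cycle genes 2 were higher (5.56%, below the share of all clusters with 1 symbol), and 1 in fits without replicate 2 or 3 at 200 mg/kg or replicate 2 or 5 at 2000 mg/kg. Tk1, thymidine kinase, one of these, differed by 0.33 ± 0.071. Among all clusters with 1 symbol the share of rises was 8.12%. Of 16 p53 targets 1 rose (6.25%, also below that share) and 2 fell (12.5%, against 4.62% of those clusters). The rise was the death receptor Fas at 0.72 ± 0.089. Of 25 interferon response genes 4 rose (16.0%), among them Bst2 at 0.58 ± 0.099 and Ifit2 at 0.54 ± 0.14.

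**Figure D4:**
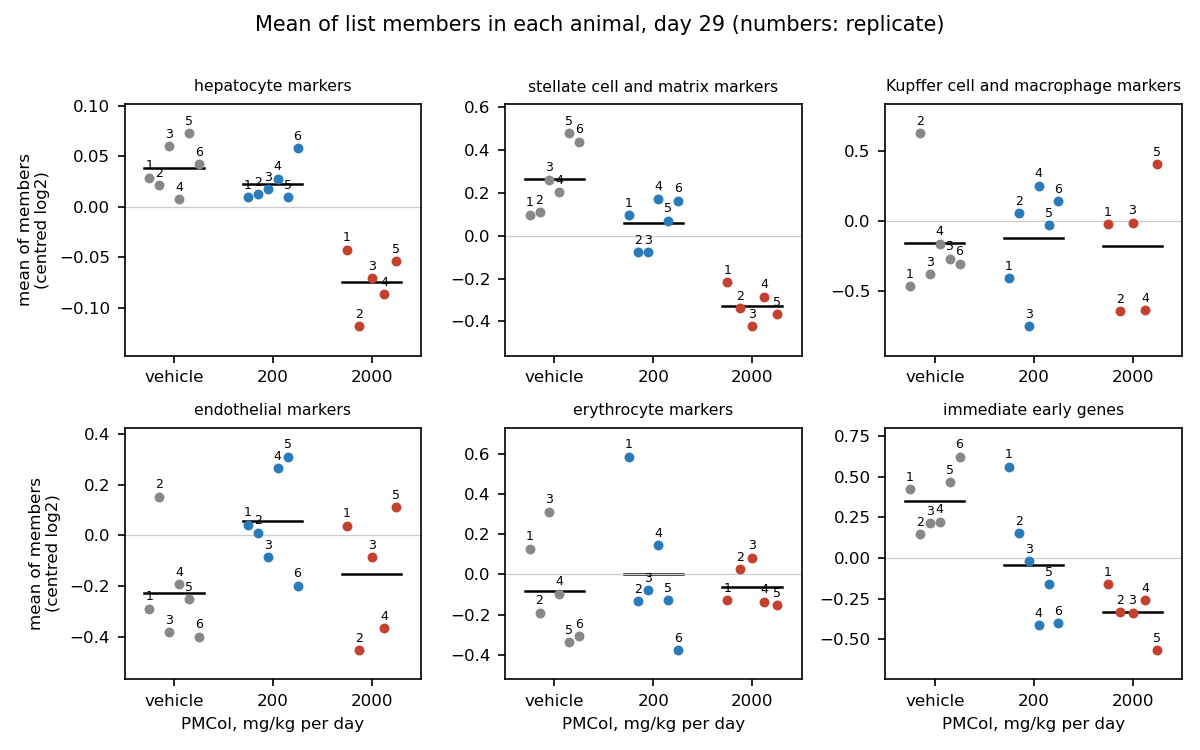
Mean centred log2 value of the members of 6 lists (y axis) in each animal at day 29, by dose (x axis, mg/kg per day), numbered by replicate, with bars at the group means. The stellate and matrix mean separates all 5 animals at 2000 mg/kg from all 6 at 200 mg/kg, the macrophage mean does not, and replicate 1 is the highest of the 6 at 200 mg/kg in the erythrocyte and immediate early lists.

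Genes outside the lists were also among the largest differences. Adgrg2, an adhesion receptor, was at 1.98, 1.54, 1.68, 2.44 and 2.47 against -0.10, -0.045 and 0.89, a difference of 1.90 ± 0.21. Grin2c, an NMDA receptor subunit, differed by 1.85 ± 0.17, Mmd by 1.64 ± 0.15, Coro6, a coronin, by 1.61 ± 0.12, Snx10, a sorting nexin, by 1.60 ± 0.21 and Ica1 by 1.58 ± 0.15. Mmd was at 1.03, 1.52, 1.00, 2.10 and 2.09 against -0.24, -0.071 and 0.048, with vehicle animals at -0.22 to 0.060, so the low-dose and vehicle animals overlapped. Coro6 was at 1.16, 1.47, 1.55, 2.04 and 1.87 against -0.085, 0.017 and 0.093, and vehicle animals at -1.03 to -0.50 lay below both. Among the falls were Lrtm2 at -1.49 ± 0.22 and Spink1l, a protease inhibitor family gene, at -1.46 ± 0.18.

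Of the clusters called both from vehicle to 200 mg/kg and between the doses, 249 moved in the same direction and 42 in opposite directions. In 25 genes the dose step was called in the direction opposite to that of the step from vehicle to 200 mg/kg, 16 higher at 200 mg/kg and then lower and 9 the reverse. Both steps use the 6 low-dose animals, so a chance deviation of that group moves both in opposite directions. Slc13a5 was one of them, with vehicle animals at 0.036, 0.57 and 1.16, and steps of 0.88 ± 0.21 and -1.97 ± 0.22. Zfp354a, a zinc finger gene, was at -1.24, -0.32 and 0.11 in vehicle animals, 0.17, 0.69 and 1.05 at 200 mg/kg and 0, -0.16, -1.24, -0.29 and -0.74 at 2000 mg/kg, with steps of 1.02 ± 0.26 and -1.12 ± 0.28. Slc25a32, a mitochondrial folate carrier, had steps of 0.82 ± 0.18 and -0.83 ± 0.19. Thrsp, a lipogenic cofactor, had steps of 0.83 ± 0.23 and -0.82 ± 0.24 (adjusted p = 0.0295), and its call was lost without replicate 3, 4, 5 or 6 at 200 mg/kg or replicate 2, 3, 4 or 5 at 2000 mg/kg, at an adjusted p of up to 0.0919. Slc34a2, a phosphate transporter, had steps of -0.91 ± 0.19 and 0.74 ± 0.19, and was not called without replicate 4 at 2000 mg/kg (adjusted p = 0.0618). Conversely, 312 genes were called at 200 mg/kg against vehicle and not between the doses. Besides the Cyp2b genes, Fkbp5, Socs2 and Nr4a1 they included Cryl1, a crystallin family dehydrogenase, with a first step of 1.49 ± 0.16 and a difference between the doses of 0.32 ± 0.17 (interval -0.024 to 0.66, adjusted p = 0.263).

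The day 8 animals share no rat with this comparison. Of the 2704 clusters called between the doses at day 29, 1645 were also called in the same direction between 2000 mg/kg and vehicle at day 8, which is 60.8% of the dose calls and 32.3% of the day 8 calls, and 24 were called in the opposite direction. Over all clusters 18.6% were called at day 8, in either direction. Both tests take the spread of each cluster from the same fit of 29 animals, so the 2 sets of calls are not fully independent. Akr1b8 differed by 4.26 ± 0.22 at day 8, Acot1 by 4.85 ± 0.34, Sds by -3.14 ± 0.31, Dhrs7l1 by -5.01 ± 0.31 and Mup5 by -3.06 ± 0.24. Some of the large differences between the doses had no call at day 8. Igfbp1 differed by 0.047 ± 0.25 there (adjusted p = 0.937), Nfkbia by 0.079 ± 0.22 (adjusted p = 0.868), Tsc22d3 by -0.38 ± 0.22 (adjusted p = 0.27) and Msmo1 by 0.037 ± 0.15 (adjusted p = 0.914). The day 8 comparison is with vehicle and after 7 doses, so the 2 differ in more than time.

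**Figure D5:**
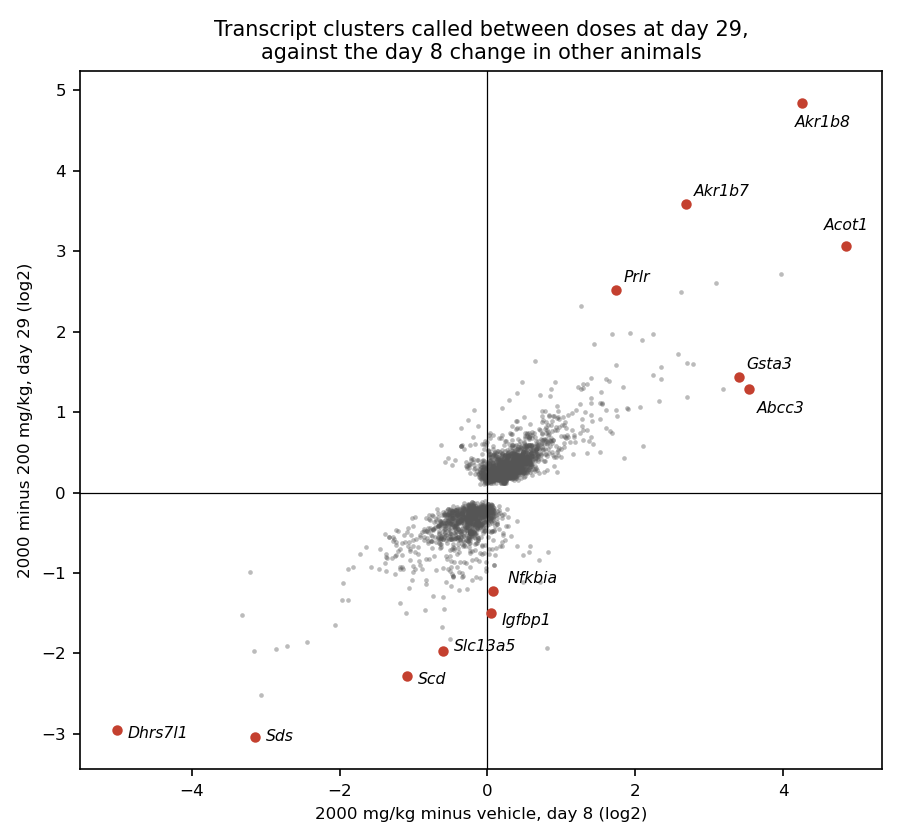
Difference between 2000 and 200 mg/kg at day 29 (y axis, log2) against the difference between 2000 mg/kg and vehicle at day 8 (x axis, log2), for the 2704 clusters called between the doses, with 12 genes named in red. No rat is in both comparisons. Akr1b8 lies at 4.26 and 4.84, Sds at -3.14 and -3.04, and Nfkbia and Igfbp1 lie near 0 on the day 8 axis.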

How the data were processed

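Per the labels, each animal gave 1 Affymetrix whole-transcript array. The deposited values are on the log2 scale, 1 per transcript cluster (27342) and animal (29). PLIER and MAS5 stand in the submitters' processing notes, with no versions or roles. The median of every row over the 29 animals was 0, so levels are not held, and an offset added before the logarithm, which would shrink the differences of dim genes, is not given in the sources used here. The decimals of 7768 clusters fit stored log2 values of 8 or more in all animals.

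Symbols came from the platform annotation: 15097 clusters had 1 symbol, 323 several and 11922 none. 15067 of the clusters with 1 symbol matched the GRCr8 gene table and 0 symbols were updated. The array's own genome build is not given in the sources used here.

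limma 3.58.1 in R 4.3.3 fitted 5 groups to all 29 animals (residual df 24), with two-sided moderated tests and Benjamini-Hochberg adjustment over all clusters. The other groups entered the estimate of the spread only. The test was run on simulated data first. Intervals are 95% intervals. 6 of the 149 named genes had more than 1 cluster (Abcc4, Acnat2, Gsta4, Insig1, Psat1 and Psmc4), and the text gives the differences of all of them. The first value given comes from a cluster of that bright set where there is one, and otherwise from the lowest probe number. Tables and plots used Python 3.11.15, pandas 2.3.3 and matplotlib 3.10.9.

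The 43 gene lists (36 of pathways, 7 of cell types) name 850 genes, of which 728 were measured. The members, lists and rules were chosen with earlier results of these data known. Genes named in the text come from the 15 largest rises and falls with every high-dose animal on 1 side of the low-dose mean, a set of 32 genes given whatever they did, up to 6 called members per list, and the leading genes of the opposite and low-dose-only groups, 206 in all, of which 149 are named. Alternatives changed the animals fitted, the normalization, the prior, array weights, the filter, the threshold, a block by replicate number, and left out each of the 11 animals. The labels number the replicates but do not say that a number is shared between groups by design, and p-values measure the spread between animals as kept in the study.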

Additional observations from a re-analysis of the deposited data

Results flagged for a closer look

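In 298 groups of 5 or 6 animals (149 genes in both groups), 13 had 1 animal far from the rest by Dixon's ratio, where chance flags about 1 in 20 groups. At 2000 mg/kg, Txnrd1 was 0.31 in replicate 1 and 0.57 to 0.65 in the others. Replicate 3 at that dose was low for Aqp7 (-0.11, others 1.03 to 1.43) and for Fkbp5 (0.050, others 0.99 to 1.36), and replicate 5 was low for Col3a1 (-0.58, others -0.43 to -0.38).

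At 200 mg/kg, replicate 6 was high for Asns (0.50, others -0.13 to 0.079) and Adgrg2 (0.89, others -0.10 to 0.13) and low for Nfkbia (-0.051, others 0.38 to 0.57). Replicate 4 was low for Sds (-0.74, others 0 to 0.37) and Got1 (-0.46, others 0 to 0.22). Replicate 3 was low for Akr7a3 (-0.78, others -0.012 to 0.25) and Epcam (-0.51, others -0.075 to 0.11). Replicate 2 was high for Hp (0.15, others 0.038 to 0.068) and Lrtm2 (1.14, others 0.37 to 0.61). Of these 13 genes, 12 kept their call between the doses without any 1 of the 11 animals, and Fkbp5 was not called.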

How the results depend on the processing

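Among the 149 named genes 0 changed direction under any alternative, and 134 of the 137 called kept their call without any 1 of the 11 animals, the exceptions being Thrsp, Cyp2c12 and Slc34a2. Without 1 animal the counts ran from 1080 to 1734 clusters higher and from 675 to 1079 lower, and from 51 to 68 and 37 to 58 for changes of 2-fold or more. The counts of 1080 and 675 came without replicate 5 at 2000 mg/kg, and the cause was not tested. An adjusted p under 0.01 left 857 higher and 507 lower. A test against a fold of 1.2 left 148 and 83 and ended the call of 74 named genes. Both are stricter by construction. Among the 7768 clusters with stored values of 8 or more, 12 rose and 26 fell by 2-fold or more, with fewer clusters tested. A fit of the 11 animals alone called 1258 and 879, and quantile normalization 1648 and 1167. A prior variance that follows the mean ended the calls of Akr1b8 and Dhrs7l1 (adjusted p = 0.431 and 0.729 in limma). The mean of centred values is not a level and shifts with large changes, so that setting cannot decide these 2 calls.

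Correlations of deviations between same-numbered animals of the 2 groups ran from -0.044 to 0.26. Only 1 of 5 animals at 2000 mg/kg correlated best with its own number. So few pairs cannot show whether animals with the same number shared a condition. With the replicate number as a block, 1701 clusters were higher and 1035 lower, and within the 11 animals, an alternative chosen after seeing the data, 1392 and 902. That second block ended the call of 6 named genes and added 4 calls (Cyp1a1, Cyp2b1, Cyp2b2 and Nr4a1). Of the 86 counts over lists, 4 moved by over 1.5 times under the first block and 10 under the second. The number of arrays limits all of these counts, and dim clusters may understate their differences.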
